A study of Mus musculus with 6 samples.

Results

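Calcitonin gene-related peptide (CGRP) and substance P are the peptides that define the peptidergic class of pain-sensing neurons, and 7 genes of their signalling were described here in mouse dorsal root ganglia. The genes are Calca, Calcb and Tac1, which encode the peptide precursors, Scg2, which encodes a protein of the vesicles that store them, and Calcrl, Ramp1 and Tacr1, which encode their receptors. They were chosen by name from the 36793 gene identifiers of the deposited table, and all 7 were found in it.

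The study sequenced mRNA from 3 ganglia labelled NMDA-R Knockout (KO, mice 4, 5 and 6) and 3 labelled Wildtype (WT, mice 1, 2 and 3), taken at lumbar levels L3 to L4. The series title places the deletion of GluN1, the subunit that every NMDA-type glutamate receptor needs, in Schwann cells, the glia that wrap axons in peripheral nerve. The design compares KO with WT ganglia and so asks how gene expression in the ganglion differs when the gene is deleted from these glia. The labels call the material Schwann cells, but it was whole ganglion: the summed level of 22 pan-neuronal genes was 28787 to 33549 counts per 1000000 (CPM) in KO libraries and 24954 to 31289 CPM in WT libraries. The summed level of 17 Schwann and satellite glia genes was 10725 to 10785 CPM in KO and 8414 to 9629 CPM in WT. The sources used here give neither the driver of the deletion nor the strain, sex or age of the mice, and mouse numbers are the only sign that libraries came from separate animals.

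The libraries held 28526704 to 36249163 expected counts. KO libraries 5 and 6 differed by little more than sampling noise: their mean chi-square per gene was 1.15, where such noise alone gives about 1, against 13.2 to 104 in the other 14 pairs of libraries. Between them 0 of 10258 genes differed at a false discovery rate of 0.05, against 3382 to 7317 genes in the other pairs. They were counted as 1 sample, so that 2 KO samples were compared with 3 WT samples, and all library values are still given. Grin1, which encodes GluN1, was at 81.5 to 116 CPM in KO libraries and 68.6 to 114 CPM in WT libraries; ganglion neurons also transcribe it, so this level does not check the deletion in glia. KO library 4 stood apart in carry-over of neighbouring tissue: the summed level of 10 skeletal muscle and red blood cell genes was 15057 CPM there, 3973 and 3952 CPM in KO libraries 5 and 6, and 3177 to 5917 CPM in WT libraries.

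CGRP and substance P are made in the neuron's cell body, packed with granins into dense-core vesicles, and released both in the spinal cord and from endings in the skin and other tissues. CGRP acts on a receptor built from Calcrl and Ramp1 and dilates blood vessels, and substance P acts on the neurokinin 1 receptor, encoded by Tacr1, which makes vessels leaky and carries pain signals to spinal neurons. Some peptidergic neurons make both peptides, and CGRP comes in an alpha form from Calca and a beta form from Calcb.

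Calca and Calcb lie head to head on mouse chromosome 7, Calca at 114631478 to 114636357 on the minus strand and Calcb at 114718643 to 114723365 on the plus strand (GRCm38). Their coding sequences for the CGRP peptide are shown because the results turn on the difference between these genes, whose CGRP segments are near-identical. Each segment is 111 bases long and lies in exon 4 of the 5 exons of its transcript, Calca's at chr7:114632470-114632580 and Calcb's at chr7:114721994-114722104. The sequences are from GENCODE vM21 transcripts on GRCm38, each 5′ to 3′ in the sense of its gene, with the 5 bases that differ between them in capitals.
Calca CGRP segment: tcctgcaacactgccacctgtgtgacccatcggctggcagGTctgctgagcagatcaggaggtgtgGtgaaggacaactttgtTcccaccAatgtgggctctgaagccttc
Calcb CGRP segment: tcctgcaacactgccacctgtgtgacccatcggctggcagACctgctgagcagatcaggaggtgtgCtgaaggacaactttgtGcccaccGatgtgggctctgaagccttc

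Tac1 lies on chromosome 6 from 7554879 to 7565834 on the plus strand, and its 33 bases that encode substance P lie in exon 3 of the 6 exons of its transcript, at chr6:7556732-7556764. They are shown as the coding segment of the other peptide whose gene was lower in the KO.
Tac1 substance P segment: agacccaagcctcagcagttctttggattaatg

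The 2 CGRP genes could still be told apart by the reads as a whole. The longest run of identical bases between their transcripts was 60, and 0 of the 888 windows of 75 bases in the Calcb transcript occurred in the Calca transcript that holds CGRP. Some reads were nevertheless divided between them by the authors' quantification: the expected counts of both genes were not whole numbers in any library, while their sum was whole in 6 of 6 libraries within a tolerance of 1e-06. Levels of the 2 genes are therefore estimates that share some reads, and how many they share is not known.

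In transcripts per 1000000 (TPM), a level per unit of transcript length, the 7 genes fell into 3 tiers. Calca was among the most abundant transcripts of the ganglion, at rank 24 to 31 of the 35243 genes with a symbol, depending on the library. Tac1 ranked 240 to 372, Scg2 321 to 421 and Calcb 619 to 1179. The receptor genes were low: Calcrl ranked 10592 to 11444, Ramp1 14131 to 16396 and Tacr1 17036 to 18824. Tac1 and Scg2 could not be ordered in the KO, where their TPM levels overlapped, whereas Tac1 exceeded Scg2 in every WT library. Each other neighbouring pair in this order was separated in all 6 libraries.

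**Figure D1:**
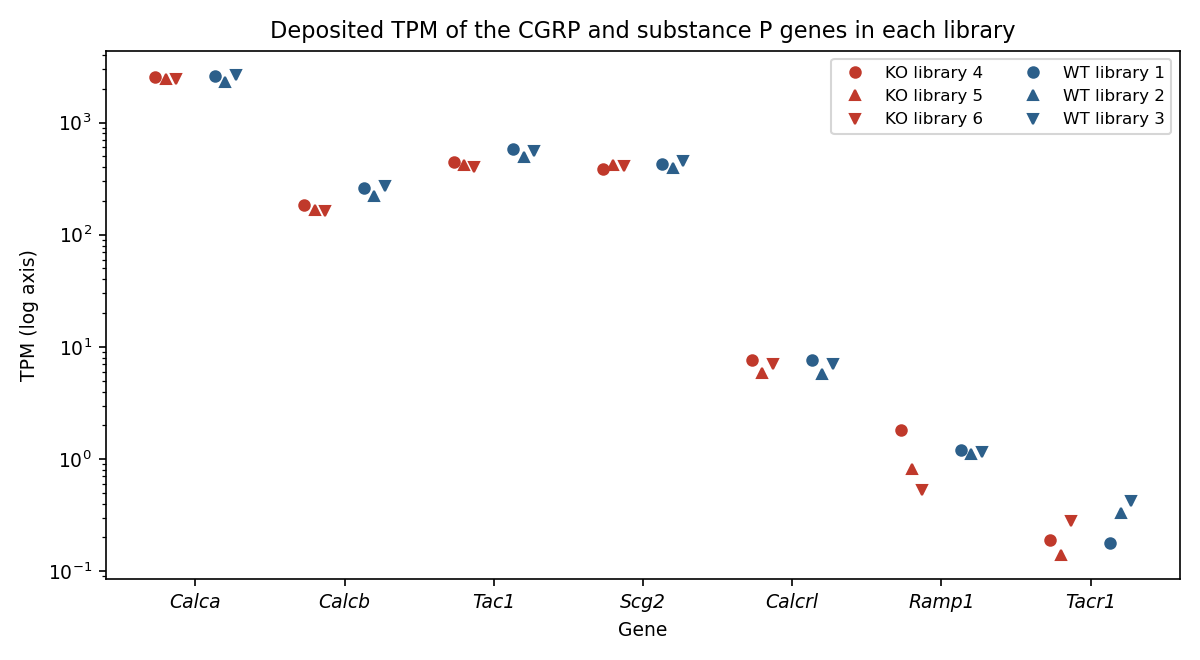
Level of each gene in TPM (log axis) in the KO libraries (red, left) and the WT libraries (blue, right), 1 point per library. Calcb and Tac1 lie lower in all 3 KO libraries than in all 3 WT libraries, and the points of the other 5 genes overlap between genotypes.

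Calcb and Tac1 were the precursor genes with lower levels in the KO, Calca overlapped between genotypes, and no gene of the 7 passed the test across all genes. By the edgeR quasi-likelihood test with Benjamini-Hochberg adjustment over all 16810 genes tested, 0 of the 7 genes were called at an adjusted p of 0.05, where 0.0952% of all genes were called. All 7 passed the filter on low counts. Calcb and Tac1, 2 of the 7, had an unadjusted p under 0.05, as did 9.16% of all genes. DESeq2 and limma-voom with quality weights also called 0 of the 7.

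Calcb, the beta-CGRP precursor, had 182, 167 and 163 TPM in KO libraries 4, 5 and 6, against 258, 222 and 272 TPM in WT libraries 1, 2 and 3. All 3 KO libraries were below the lowest WT library, and KO libraries 5 and 6 were the lowest. The mean level was 174 ± 12.3 TPM in KO (SD, n = 2) and 251 ± 25.9 TPM in WT (SD, n = 3). The fitted difference was 0.696-fold, with a 95% interval of 0.563 to 0.862, or -0.52 on the log2 scale with a standard error of 0.13. Its unadjusted p was 0.00551 in the fit across all genes, and its edgeR adjusted p was 0.316. With the 6 libraries taken as separate samples the log2 difference was -0.56 and the edgeR adjusted p 0.0621.

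Tac1, the precursor of substance P and neurokinin A, had 443, 418 and 400 TPM in KO libraries 4, 5 and 6, against 581, 491 and 559 TPM in WT libraries 1, 2 and 3. Again the groups did not overlap. The mean level was 426 ± 23.5 TPM in KO (SD, n = 2) and 544 ± 46.8 TPM in WT (SD, n = 3), and the fitted difference was 0.788-fold, with a 95% interval of 0.647 to 0.961. On the log2 scale it was -0.34 with a standard error of 0.12, and the edgeR adjusted p was 0.487, or 0.133 with 6 separate libraries. Calcb and Tac1 were thus 2 of 7 genes with every KO sample below every WT sample, a pattern that 15.5% of all genes tested also showed.

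Calca, the precursor of alpha-CGRP and, by another splice form, of the hormone calcitonin, had 2547, 2452 and 2461 TPM in KO libraries 4, 5 and 6, against 2575, 2295 and 2665 TPM in WT libraries 1, 2 and 3. Every KO value lay inside the WT range. The fitted difference was 1.00-fold with a 95% interval of 0.833 to 1.20, and the edgeR adjusted p was 0.998. The sign of this difference turned in 14 of the 22 alternative settings. Both splice forms of Calca are in the deposited table, which gives for each library a gene length averaged over transcripts by abundance. That length was 991.53 to 991.73 bases over the 6 libraries. With the GENCODE vM21 lengths of 994 bases for the transcript that holds CGRP and 830 bases for the one without it, the CGRP transcript made up 98.5 to 98.6% of Calca transcripts in KO and in WT libraries alike. The sources used here do not name the annotation release behind the table, so this share rests on the vM21 lengths.

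Scg2, the precursor of secretogranin II, a granin that helps to form dense-core vesicles and is itself cut into peptides, had 382, 420 and 409 TPM in KO libraries 4, 5 and 6, against 431, 393 and 458 TPM in WT libraries 1, 2 and 3. The groups overlapped. The fitted difference was 0.936-fold with a 95% interval of 0.785 to 1.12, and the edgeR adjusted p was 0.790.

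**Figure D2:**
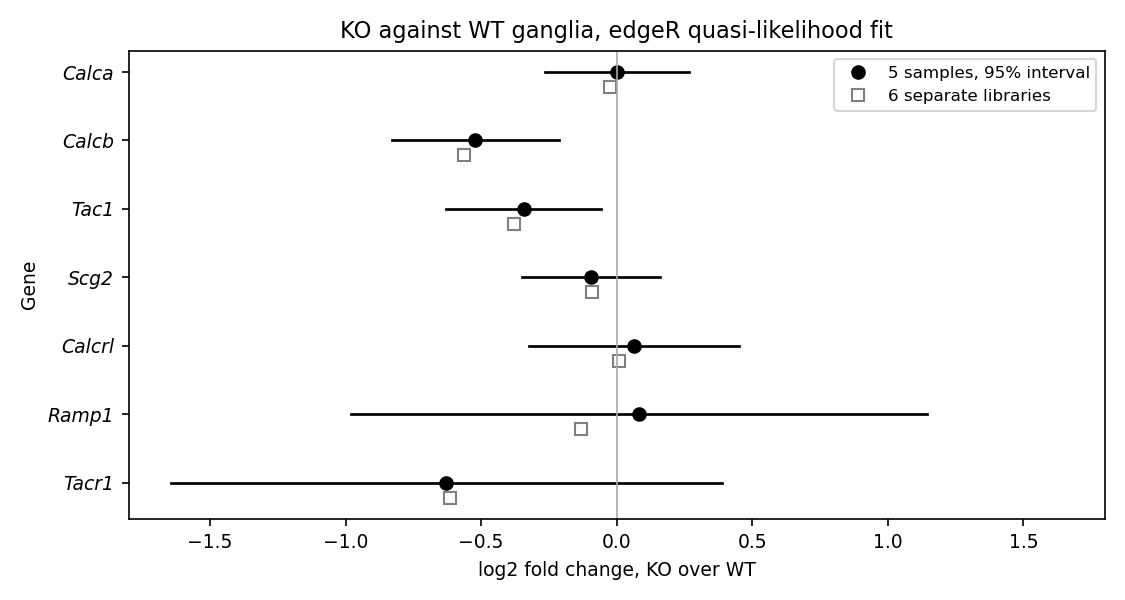
Log2 fold change of KO over WT for each gene from the edgeR fit: filled circles with 95% intervals for 5 samples, open squares for 6 separate libraries. Calcb at -0.52 and Tac1 at -0.34 have unadjusted intervals below 0, while the intervals of Ramp1 and Tacr1 span more than 2 log2 units.

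Ratios of TPM within a library were compared next, since they do not depend on how libraries are scaled to each other. Calcb reached 0.0716, 0.0680 and 0.0664 of the Calca TPM in KO libraries 4, 5 and 6, against 0.1002, 0.0968 and 0.102 in WT libraries 1, 2 and 3. Within each genotype the ratio varied little, and the genotypes were well apart. The mean ratio was 0.0694 ± 0.00314 in KO (SD, n = 2) and 0.0998 ± 0.00272 in WT (SD, n = 3), a difference of -0.52 on the log2 scale. The two-sided exact permutation test gave p = 0.2, the smallest that 2 against 3 samples can give, and 0.5 after Benjamini-Hochberg adjustment over the 5 ratios compared. With 6 separate libraries the exact permutation p was 0.1, again the smallest possible.

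The ratio of Tac1 to Calca was 0.174, 0.171 and 0.163 in KO libraries 4, 5 and 6, against 0.226, 0.214 and 0.210 in WT libraries 1, 2 and 3. Here too every KO value was below every WT value. The log2 difference was -0.35, with an exact permutation p of 0.2 that was again the smallest possible. Scg2 to Calca differed by -0.10 on the log2 scale, with an exact permutation p of 0.4, and its values overlapped. Calca is the denominator of all 3 ratios, so they are not independent of each other.

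**Figure D3:**
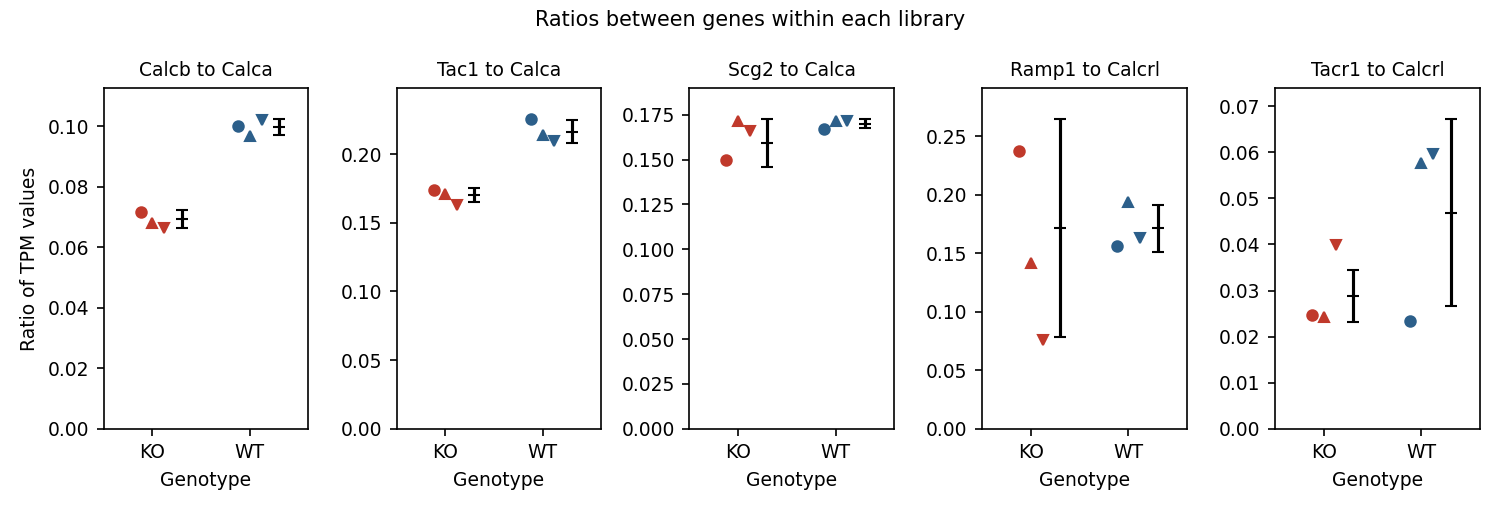
Ratio of TPM values of 2 genes within each library, KO (red) left of WT (blue), with circles, upward and downward triangles for libraries 4, 5 and 6 in KO and 1, 2 and 3 in WT; bars show the mean and SD over 2 KO samples and 3 WT samples. The ratios of Calcb and Tac1 to Calca do not overlap between genotypes, and the 3 other ratios do.

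The receptor genes showed no difference that could be resolved. Calcrl, the CGRP and adrenomedullin receptor, is expressed by endothelium and by some neurons and lies on chromosome 2 from 84330626 to 84425411. It had 7.67, 5.79 and 7.02 TPM in KO libraries 4, 5 and 6, against 7.67, 5.73 and 7.04 TPM in WT libraries 1, 2 and 3. The genotypes covered almost the same range. The fitted difference was 1.04-fold with a 95% interval of 0.799 to 1.37 (edgeR adjusted p = 0.912), and its sign turned in 5 of the 22 alternative settings. Calcrl has 3 transcripts in the table, and its average length ranged from 3786 to 4624 bases between libraries, so its TPM depends on how reads were divided among them.

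Ramp1, the partner that makes Calcrl a CGRP receptor, lies on chromosome 1 from 91179822 to 91225196. It had 1.82, 0.82 and 0.53 TPM in KO libraries 4, 5 and 6, against 1.20, 1.11 and 1.15 TPM in WT libraries 1, 2 and 3. The WT values were close together, and the KO values lay on both sides of them. These levels rest on 63, 32 and 19 counts in KO and 46, 41 and 38 counts in WT. The fitted difference was 1.06-fold with a 95% interval of 0.507 to 2.21 (edgeR adjusted p = 0.962). Its direction was not stable: the log2 difference was 0.08 with all 5 samples, -0.78 without KO library 4, 0.70 without KO libraries 5 and 6, and -0.13 with 6 separate libraries.

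Tacr1, the neurokinin 1 receptor for substance P, lies on chromosome 6 from 82402334 to 82560104. It had 0.19, 0.14 and 0.28 TPM in KO libraries 4, 5 and 6, against 0.18, 0.33 and 0.42 TPM in WT libraries 1, 2 and 3. These are 13, 11 and 20 counts in KO and 14, 24.2 and 28 counts in WT. The groups overlapped, since WT library 1 was among the low ones. The fitted difference was 0.647-fold with a 95% interval of 0.320 to 1.31 (edgeR adjusted p = 0.677), an interval wide enough at this depth to hold both lower and higher levels in the KO.

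Between receptor genes, the TPM ratio of Ramp1 to Calcrl was 0.171 ± 0.0933 in KO (SD, n = 2) and 0.171 ± 0.0198 in WT (SD, n = 3), with an exact permutation p of 0.8 for a log2 difference of -0.11. For Tacr1 to Calcrl the ratio was 0.0288 ± 0.00567 in KO and 0.0469 ± 0.0203 in WT, with an exact permutation p of 0.6 for a log2 difference of -0.60. In whole ganglia, fewer cells of a type and less RNA per cell cannot be told apart for any of these genes.

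**Figure D4:**
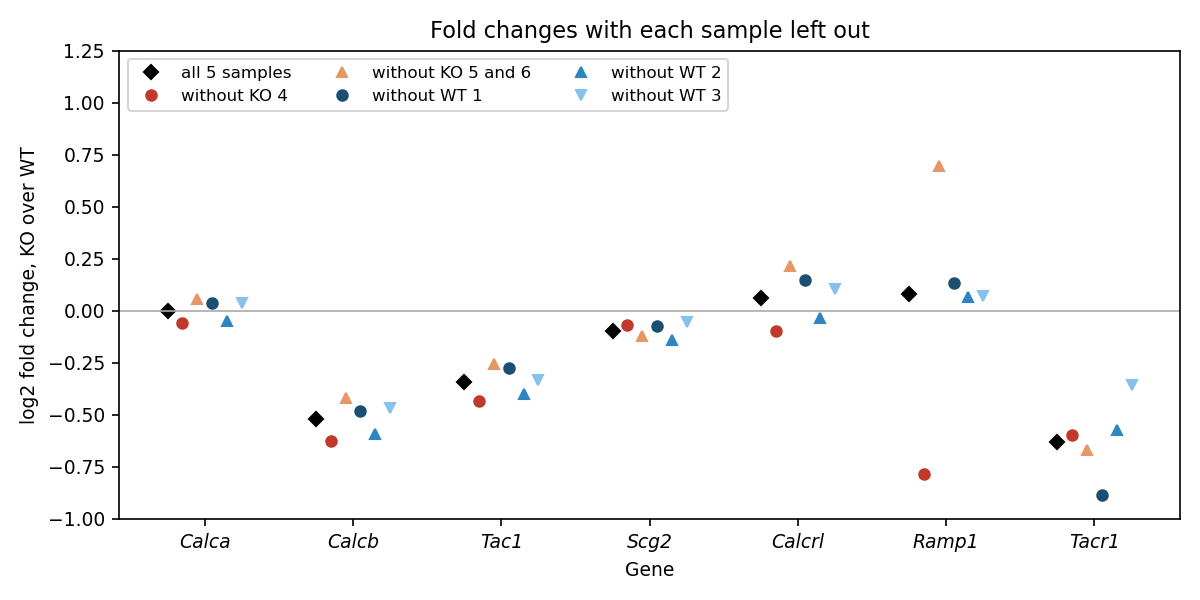
Log2 fold change of KO over WT for each gene with all 5 samples (black diamonds) and with each sample left out in turn (colours, KO samples named first). Calcb stays between -0.63 and -0.42 and Tac1 between -0.43 and -0.26, whereas Ramp1 moves from 0.08 to -0.78 without KO library 4 and to 0.70 without KO libraries 5 and 6.

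Other genes of the table were ranked by how closely their pattern over the samples followed each of the 7 genes. The measure was the root mean square difference of log2 CPM, centred on each gene's mean, over the 5 samples. It was taken among 9750 protein-coding genes with a mean of at least 10 CPM, leaving out genes with only a locus or clone name. Closest to Calcb were Gabra3, a GABA-A receptor subunit, at 0.0508 and Rgs4, a regulator of G protein signalling, at 0.0516. Gabra3 was at 15.5, 14.6 and 13.6 CPM in KO libraries 4, 5 and 6, against 23.6, 20.4 and 24.4 CPM in WT libraries 1, 2 and 3 (edgeR adjusted p = 0.257). It was picked for its likeness to Calcb, so its lower level in KO follows from that choice. Closest to Tac1 were Frmd4b at 0.0206 and Taf9b at 0.0226. Closest to Calca were Agps at 0.0159 and Jmjd6, closest to Scg2 Adgrg2 at 0.00888 and Crebzf, and closest to Calcrl Traf6 at 0.0189 and Gpcpd1. For the low genes, the nearest to Ramp1 was Ptprc, the leukocyte marker CD45, at 0.196, and the nearest to Tacr1 was Grk3 at 0.196. Ramp1 and Tacr1 are themselves below 10 CPM, so no gene as low as they are could be a match.

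Other genes of the pathway were taken from lists of relatives, processing and degrading enzymes, vesicle proteins, signalling proteins and markers of peptidergic neurons. Of the 83 such genes tested, 0 passed the edgeR test with 5 samples and 0 with 6 separate libraries, where 0.0952% and 0.871% of all genes did. DESeq2, which called 255 genes or 1.52% of all genes, called 3 of them, Rab27b and Cadps2 lower and Prokr2 higher in KO. The median log2 difference over all genes tested was 0.00.

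Relatives of the precursors were almost silent in the ganglion. Adm, the adrenomedullin precursor, whose product also acts through Calcrl, was the 1 of 5 listed precursors past the filter, at 0.544, 0.688 and 0.844 CPM in KO libraries 4, 5 and 6, against 0.779, 1.19 and 2.19 CPM in WT libraries 1, 2 and 3 (log2 difference -1.04, edgeR adjusted p = 0.575). Iapp, the amylin precursor, was listed at 0 in all libraries. Of 7 other receptor genes, 4 were tested, 2 higher and 2 lower in KO, with a median log2 difference of -0.06 and 0 passing. Ramp2 and Ramp3, which turn Calcrl into adrenomedullin receptors, differed by 0.16 and 0.07 on the log2 scale, and Crcp, a small protein that couples the CGRP receptor to its G protein, by -0.22. Tacr3, the neurokinin B receptor, differed by -0.18. Calcr, the calcitonin receptor, was listed at 0 in all libraries.

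Among 10 peptide processing enzymes, 5 were higher and 5 lower in KO, with a median log2 difference of 0.04 and 0 passing. Pcsk5, a proprotein convertase, was at 13.5, 15.6 and 15.6 CPM in KO libraries 4, 5 and 6, against 10.3, 10.6 and 9.23 CPM in WT libraries 1, 2 and 3, with no overlap (log2 difference 0.54, edgeR adjusted p = 0.311). Pam, which adds the C-terminal amide that both CGRP and substance P need for activity, differed by -0.20, and Scg5, the 7B2 chaperone of the convertase Pcsk2, by -0.39. Pcsk1 and Pcsk2, the main convertases of neuropeptide precursors, differed by 0.08 and -0.01. Of 8 peptide degrading enzymes, 5 were higher and 3 lower with a median of 0.05 and 0 passing, among them Ace at 0.30, Ece1 at 0.34 and Mme, the neprilysin that cuts substance P, at 0.09.

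Among 17 granins and dense-core vesicle proteins, 10 were higher and 7 lower in KO, with a median log2 difference of 0.10 and 0 passing. Rab27b, a small GTPase that docks secretory vesicles, was at 97.2, 86.9 and 82.2 CPM in KO libraries 4, 5 and 6, against 153, 122 and 145 CPM in WT libraries 1, 2 and 3 (log2 difference -0.62, edgeR adjusted p = 0.282). Cadps2, which primes dense-core vesicles for release, was at 37.3, 43.0 and 42.6 CPM in KO, against 57.2, 55.1 and 60.1 CPM in WT (-0.52, edgeR adjusted p = 0.282). Neither overlapped between genotypes, nor did Syt5, a synaptotagmin (-0.41), or Scg3, secretogranin III (-0.30). Thus 4 of the 17 were lower in KO without overlap, as were 15.5% of all genes tested. Of the 17, 0 were higher without overlap, against 11.8% of all genes. The granins Chga and Chgb differed by 0.25 and 0.17, and Vgf by 0.86 with overlapping groups.

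Of 22 genes that couple the receptors to their G proteins, cyclic AMP and calcium, 12 were higher and 10 lower, with a median of 0.06 and 0 passing. The 4 with the smallest p were Prkca, a protein kinase C, at -0.38, Grk3, a receptor kinase, at -0.42, Arrb1, beta-arrestin 1, at 0.32, and Prkacb, a catalytic subunit of protein kinase A, at -0.18 on the log2 scale.

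Other genes on the list of markers of peptidergic neurons did not share one direction with Calcb and Tac1. The list was mixed: it also held Runx1, Nefh, Etv1, Scn10a and Scn11a, which are not particular to these neurons. Its counts therefore do not describe peptidergic neurons alone. Of 21 tested, 10 were higher and 11 lower in KO, with a median log2 difference of -0.04 and 0 passing. At an unadjusted p under 0.05 the list held 5 higher and 1 lower. The groups did not overlap for 5 higher markers and 3 lower ones, patterns shown by 11.8% and 15.5% of all genes tested. Trpa1, the irritant channel, was at 59.1, 56.6 and 57.9 CPM in KO libraries 4, 5 and 6, against 93.0, 67.8 and 98.5 CPM in WT libraries 1, 2 and 3, with no overlap (log2 difference -0.57, edgeR adjusted p = 0.420). Prokr2, a prokineticin receptor, was at 22.3, 28.2 and 26.6 CPM in KO, against 11.7, 14.7 and 17.4 CPM in WT, with no overlap (0.77, edgeR adjusted p = 0.317). Etv1, a transcription factor, differed by 0.43 and Avpr1a, a vasopressin receptor at 0.283 to 2.15 CPM, by 1.54, both also without overlap. Trpv1, the capsaicin receptor, differed by -0.19.

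**Figure D5:**
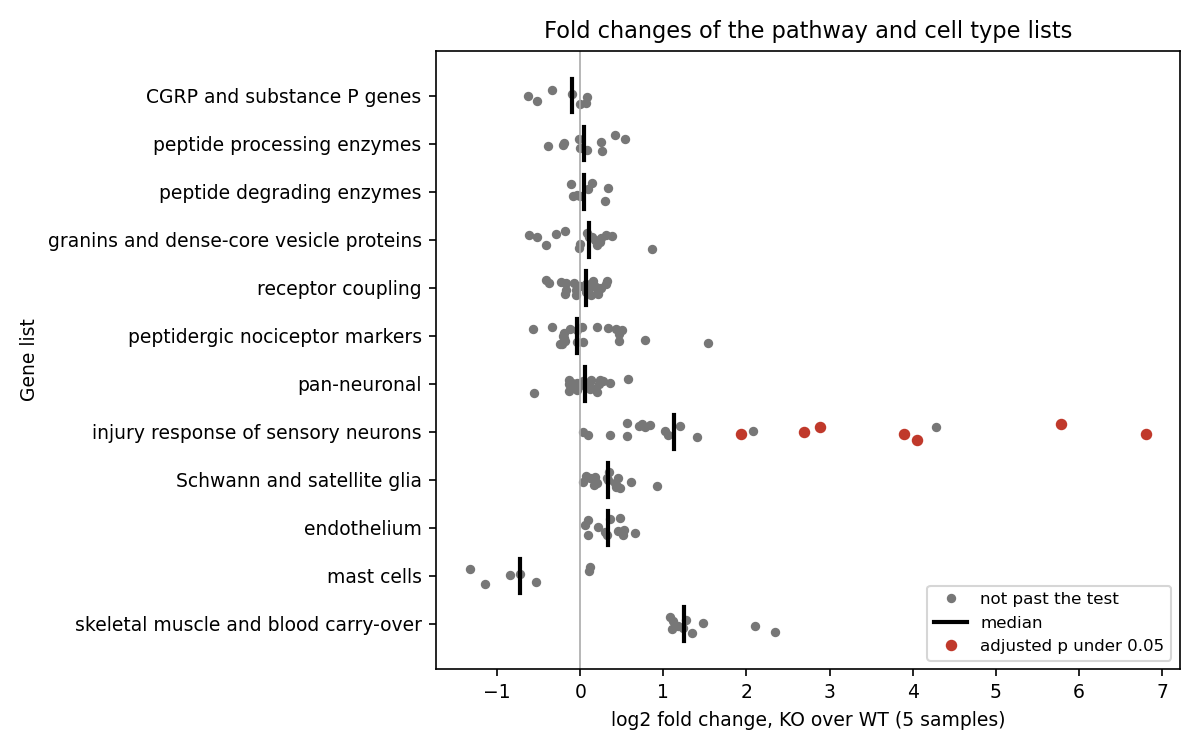
Log2 fold change of KO over WT (5 samples) for the tested genes of each list, 1 point per gene, with the list's median as a bar and genes past the edgeR adjusted p of 0.05 in red. The CGRP and substance P genes and the 5 pathway lists plotted below them centre between -0.10 and 0.10, while 22 of 22 injury response genes lie above 0 with a median of 1.13.

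Marker levels of other cells are given beside these differences. The 22 pan-neuronal genes had a median log2 difference of 0.06, with 12 higher and 10 lower. Scaled to these genes, Calcb differed by -0.57 (edgeR adjusted p = 0.735) and Tac1 by -0.39 (edgeR adjusted p = 0.913). Syt1, the calcium sensor of synaptic vesicles, had 234, 254 and 248 CPM in KO libraries 4, 5 and 6, against 346, 360 and 364 CPM in WT libraries 1, 2 and 3. It passed with 6 separate libraries (edgeR adjusted p = 0.0368) but not with 5 samples (0.235).

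Among genes of the response of sensory neurons to axon injury, a list chosen with this result known, 7 of 22 tested rose in KO past the test with 5 samples and 15 with 6 libraries. Over all genes tested, 0.0952% and 0.871% passed in these fits, in either direction. The fit with 6 libraries counts KO libraries 5 and 6 as separate samples. All 22 injury response genes tested had a fitted difference above 0, down to 0.03 for Adcyap1, whose groups overlapped. Gal, the galanin precursor, rose to 44.7, 43.8 and 46.7 CPM in KO libraries 4, 5 and 6, against 11.3, 11.6 and 12.5 CPM in WT libraries 1, 2 and 3 (log2 difference 1.93, edgeR adjusted p = 0.00722). Atf3, a stress-induced transcription factor, rose by 2.88 on the log2 scale, and Sprr1a, Npy, Ecel1, Gpr151 and Cckbr also passed. The summed level of the list was 1278 to 1289 CPM in KO and 853 to 873 CPM in WT. Schwann and satellite glia genes were higher in 17 of 17, with a median of 0.34 and 0 passing (1, Kcnj10, with 6 libraries), and endothelial genes in 12 of 12, with a median of 0.34 and 0 passing. The part of injury genes, glia or endothelium in the lower Calcb and Tac1 was not tested.

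Mast cells, which substance P can activate, were scarce, with 9 marker genes summing to 7.49 to 11.9 CPM in KO and 11.7 to 16.5 CPM in WT. Of 7 tested, 2 were higher and 5 lower, with a median log2 difference of -0.72 and 0 passing. Macrophage markers summed to 81.3 to 116 CPM in KO and 88.3 to 110 CPM in WT. The low value of Ramp1 in KO libraries 5 and 6, counted as 1 sample, went with low macrophage sums of 81.3 and 81.4 CPM, against 116 CPM in KO library 4. In WT libraries 1, 2 and 3 the macrophage sums were 110, 88.3 and 95.7 CPM, while Ramp1 stayed at 1.20, 1.11 and 1.15 TPM. The part of macrophages in the spread of Ramp1 was not tested. For Calcb and Tac1, the log2 difference was -0.63 and -0.43 without KO library 4, the library rich in muscle and blood genes. That fit kept 1 KO sample, libraries 5 and 6 together. The part of muscle and blood carry-over in these differences was not tested.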

How the data were processed

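Stranded mRNA libraries were made from total RNA with an RNA integrity number above 8.0, per the labels' protocols. The submitters' processing notes name Trimmomatic 0.38, STAR 2.6.0a, RSEM 1.3.0 and GRCm38; the sources used here do not give the annotation release or strand setting. RSEM expected counts, TPM, FPKM and gene lengths per library were deposited as 1 table. Deposited TPM values, which sum to 1000000 per library, gave levels and ratios, and deposited FPKM values were only summed. Symbols and coordinates came from GENCODE vM21, and 1550 identifiers without a symbol held 0.224 to 0.263% of counts. The table's lengths of some genes differ from vM21.

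Expected counts were rounded, filtered with filterByExpr, scaled by TMM and tested with edgeR 4.0.16 in R 4.3.3, two-sided, with Benjamini-Hochberg adjustment at 0.05 over 16810 genes. CPM per library are TMM-scaled over 6 libraries. KO libraries 5 and 6 were summed (for TPM, averaged), as their chi-square averaged 1.15 per gene, against 13.2 to 104 in the other pairs. The fit was checked on simulated data with changes of 1 and 2 on the log2 scale. Calcb and Tac1 differed by less, so the check does not cover differences of their size. P-values measure only the spread between these samples, which may be technical. The 7 genes and all lists were chosen with earlier results of these data known. Genes named from the lists were drawn from those that passed with 5 samples or 6 libraries, else those with the smallest p (up to 4 per pathway list, 2 per cell type list); Mme, Pcsk1, Pcsk2, Chga, Chgb, Vgf, Trpv1, Iapp and Calcr were named after their values were seen. Alternatives numbered 22, including DESeq2 1.42.0 and limma 3.58.1 on log2(TPM + 1), with a pseudocount of 1 or 0.1.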

Additional observations from a re-analysis of the deposited data

How the results depend on the processing

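The difference between KO and WT was negative in all 22 alternatives for Calcb (-0.64 to -0.42), Tac1 (-0.44 to -0.26), Scg2 (-0.15 to -0.05) and Tacr1 (-0.89 to -0.12), all on the log2 scale. The adjusted p of Calcb ranged from 0.0442 to 0.779, both by edgeR, over those alternatives that kept more than 1 library in each genotype. It passed in 1 of them, 6 libraries without KO 4, where 1 of the 7 genes was called. Leaving out 1 library thus gave 0 to 1. That fit takes KO libraries 5 and 6, which differed by little more than sampling noise, as separate KO samples. Its spread within KO is therefore little more than sampling noise, so its calls overstate the evidence. Calca turned to -0.023 with 6 libraries, -0.000348 with the mean of KO libraries 5 and 6, -0.049 scaled to pan-neuronal genes, -0.029 with GC correction, -0.038 with voom and -0.00317 in the 3 TPM fits. Calcrl turned to -0.014 with voom. Ramp1 turned to -0.13 with 6 libraries, -0.26 with voom and -0.038 with log2(TPM + 0.1). GC correction turned Ramp3 to -0.038 and C1qb to -0.016, and voom turned C1qb to -0.015. With 1 library or sample left out, ranges were -0.077 to 0.058 for Calca, -0.10 to 0.21 for Calcrl, -0.80 to 0.70 for Ramp1, -0.014 to 0.32 for Ramp2, -0.40 to 0.049 for Tacr3, -0.040 to 0.18 for Ramp3, -0.092 to 0.77 for Pcsk6, -0.15 to 0.012 for Ece2, -0.20 to 0.42 for Prep, -0.17 to 0.35 for C1qb and -0.12 to 3.24 for Myh4, a muscle gene high in KO library 4. The log2 ratio of Ramp1 to Calcrl ranged from -0.69 to 0.48. The count of called genes was 16, but 144 with 6 libraries, 81 with no filter, 255 with DESeq2, 27 with voom, 7 on log2(TPM + 1) with no filter, 7 to 14 with 1 of the 5 samples left out (7 without KO 4, 8 without WT 2, 10 without WT 3) and 15 to 307 with 1 of 6 libraries left out (307 without KO 4). Of the pathway genes, 0 were called, but 3 with DESeq2 and 0 to 3 with 1 library left out. The 3 with 1 library left out came from 6 libraries without KO 4, the same fit as the 307 genes. The cause was not tested. No paired analysis was possible because each genotype has mouse numbers of its own. With 2 KO samples, the ratio tests could not pass 0.05, and the 11 to 63 counts of Ramp1 and Tacr1 limit what can be seen of them.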

Other observations

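The neighbourhood of the CGRP genes was looked at after their values were seen. Within 500000 bases of either gene on chromosome 7, 6 other genes were tested. Their log2 differences ran from -0.30 to 0.06, 5 lower and 1 higher in KO. Of all 16810 genes tested, 8379 were lower in KO. The -0.30 was that of Cyp2r1, at only 0.407 to 0.749 CPM in KO libraries and 0.314 to 0.991 CPM in WT libraries. The 1 gene of the table that lies between Calca and Calcb, the processed pseudogene Gm15500, was at 236, 179 and 178 CPM in KO libraries 4, 5 and 6, against 286, 233 and 237 CPM in WT libraries 1, 2 and 3 (log2 difference -0.28, edgeR adjusted p = 0.625). Psma1, a proteasome subunit, was at 117, 105 and 98.7 CPM in KO libraries 4, 5 and 6, against 138, 123 and 121 CPM in WT libraries 1, 2 and 3 (log2 difference -0.22, edgeR adjusted p = 0.609). Insc, the nearest gene beyond Calcb, was at 12.7, 13.6 and 15.2 CPM in KO, against 13.0, 14.2 and 11.8 CPM in WT. The difference of Calcb, at -0.52, was larger in size than that of each of these 6.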
